A study of Mus musculus with 16 samples.

Results

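The immunity-related GTPases of the mouse were described by the rows of 7 gene symbols: Irgm1, Irgm2, Igtp, Iigp1, Ifi47, Tgtp1 and Tgtp2. All 7 were found among the 32285 genes of the deposited count tables, and together they held 131000 of 247473595 unique molecular identifiers (UMIs, each one captured RNA molecule) in the cells used. The counts came from droplet single-cell RNA sequencing of immune cells isolated from B16 melanomas grown under the skin of C57BL/6J mice. Each mouse received 1000000 cells of the Bro4.1 B16 line that were either B2m-null, lacking the light chain of MHC class I, or control. Antibody to CD40, or rat IgG2a as isotype control, was injected into the peritoneum at 100 mcg on days 6, 9 and 12, and tumours were taken on day 14. The 4 groups were therefore control tumours under isotype (5 mice), control tumours under anti-CD40 (2 mice), B2m-null tumours under isotype (5 mice) and B2m-null tumours under anti-CD40 (4 mice). The sample labels attach the genotype to the mice, but the design text attaches it to the implanted cells, and the latter was followed here. The labels give no age. All mice carried tumours, so no group shows the level in tumour-free tissue. Cells were pulled out of the digested tumours on CD45 magnetic beads, so melanoma cells and fibroblasts in the libraries are what the selection let through.

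Immunity-related GTPases are interferon-inducible proteins of cell-autonomous defence, best known for acting on the vacuoles in which Toxoplasma and Chlamydia live inside mouse cells. Interferon-gamma, made mainly by T and NK cells, acts through the gamma-activated site (GAS) in their promoters, while type I interferon acts through the interferon-stimulated response element (ISRE). Irgm1, Irgm2 and Igtp (also called Irgm3) are the regulatory members, which sit on the cell's own membranes and hold the other members inactive there. Iigp1 (Irga6), Ifi47 (Irgd) and the near-identical copies Tgtp1 and Tgtp2 (Irgb6) are the effector members, which load onto the vacuole and help to break it. Their transcripts are induced by interferon in many cell types, immune and non-immune.

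The 120 bases before the annotated start of 6 members are shown because 4 of them carry the letters of these interferon elements in a shared arrangement, while Irgm1 and Ifi47 do not. They were taken from RefSeq sequence of GRCm38.p6 on chromosome 11, where Igtp (chr11:58199556-58207592, plus strand), Irgm2 (chr11:58214977-58222783, plus), Ifi47 (chr11:49076587-49096987, plus), Irgm1 (chr11:48865245-48871420, minus), Tgtp1 (chr11:48985329-48992246, minus) and Tgtp2 (chr11:49057196-49064212, minus) lie. Each line runs 5′ to 3′ on the strand of its gene and ends at the base before the start. Capitals mark TTCNNNGAA (GAS) and GAAANNGAAA (ISRE) where they match.
Igtp: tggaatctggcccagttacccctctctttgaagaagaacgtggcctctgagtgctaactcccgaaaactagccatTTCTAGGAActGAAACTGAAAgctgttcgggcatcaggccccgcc
Irgm2: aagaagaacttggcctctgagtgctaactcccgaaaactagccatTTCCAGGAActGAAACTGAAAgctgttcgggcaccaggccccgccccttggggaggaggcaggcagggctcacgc
Tgtp1: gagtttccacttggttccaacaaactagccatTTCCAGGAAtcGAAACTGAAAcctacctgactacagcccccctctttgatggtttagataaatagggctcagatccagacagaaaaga
Tgtp2: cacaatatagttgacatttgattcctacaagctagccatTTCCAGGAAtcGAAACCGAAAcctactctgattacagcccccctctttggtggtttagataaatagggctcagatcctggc
Gm12185: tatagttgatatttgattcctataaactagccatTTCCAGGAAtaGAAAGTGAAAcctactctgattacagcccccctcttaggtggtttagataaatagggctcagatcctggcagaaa
Irgm1: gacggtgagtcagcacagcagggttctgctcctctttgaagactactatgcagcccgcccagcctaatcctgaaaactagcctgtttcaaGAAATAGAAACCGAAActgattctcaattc
Ifi47: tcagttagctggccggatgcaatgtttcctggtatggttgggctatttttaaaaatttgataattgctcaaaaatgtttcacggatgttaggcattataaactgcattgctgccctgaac
The windows are chr11:58199436-58199555 for Igtp, chr11:58214857-58214976 for Irgm2, chr11:48992247-48992366 for Tgtp1, chr11:49064213-49064332 for Tgtp2, chr11:48927183-48927302 for Gm12185, chr11:48871421-48871540 for Irgm1 and chr11:49076467-49076586 for Ifi47. Gm12185 is a family gene outside the 7 and is shown because it carries the same arrangement.

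Within the 250 bases before the start, searched on both strands, GAS was present in 4 of the 6 members with a window and in 7.02% of all 32851 windows. ISRE was present in 5 of the 6 members and in 2.98% of the windows. In Igtp, Irgm2, Tgtp1 and Tgtp2 the pair was joined as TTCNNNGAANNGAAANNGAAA, a pattern that was written down after these windows had been read. This joined form was found in 5 windows of the whole table (0.0152%), those of these 4 members and of Gm12185. Its end lay 24 bases before the start of Igtp, 54 before that of Irgm2, 67 before that of Tgtp1 and 60 before that of Tgtp2. Irgm1 had 2 overlapping ISRE matches, the nearer ending 14 bases before the start, and no GAS in the window, and Ifi47 had neither. Around the joined form, the letters were nearly the same in Igtp and Irgm2 and much alike in Tgtp1, Tgtp2 and Gm12185. The matches of these genes are therefore not independent of one another. A match is a description of letters and does not show that a factor binds. Only the window before the annotated start was searched, so a missing match does not show that Ifi47 or Irgm1 lacks such elements elsewhere.

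The 8 lanes held 46.0 to 99.3 M UMIs each (M, 1000000), in 116552 cell barcodes. Hashtag antibodies told the mice of a pool apart and assigned 37.5 to 84.8% of the barcodes of a lane, and 11.1% of all barcodes were removed as hashtag doublets. Of 74047 cells that passed filters and had a mouse, 45155 (61.0%) fell in 1 of 15 classes by the UMIs of their marker genes, with 485 to 8356 such cells per mouse. Class names stand for such marker-gated cells (macrophage-like, monocyte-like and so on), and no member was used as a marker. The lanes of a group were separate pools, called pool 1 and pool 2, except that both lanes of control tumours under anti-CD40 were technical repeats of 1 pool of 2 mice. Its group and its pool cannot be told apart. Levels are scaled counts (CPM), the gene's UMIs per 1000000 UMIs of that class in that mouse or lane. They were not divided by length, so they are compared between cells and not between genes. B2m, the gene lost from the implanted cells per the design text, was at 905 to 1880 CPM in the melanoma-gated cells of the 4 control lanes. It was at 156 to 400 CPM in those of the 4 B2m-null lanes. Lanes shared 41 to 92 cell barcodes by pair, with 70 between the technical repeats.

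Iigp1 (ENSMUSG00000054072), which lies on chromosome 18 and whose promoter was not used here, had 41815 UMIs in the cells used, Ifi47 31352, Irgm1 30497, Igtp 19262 and Irgm2 7172. Tgtp2 had 734 UMIs and Tgtp1 168. The last 500 bases of the Tgtp1 and Tgtp2 transcripts, where this chemistry reads, shared 100% of their 441 words of 60 bases. The reads of these copies therefore cannot be told apart in the annotation, and their levels are uncertain. Irgm1 shared 8 of its 441 words (1.81%) with other genes, and Igtp, Irgm2, Ifi47 and Iigp1 shared 0.

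In control tumours under isotype, the effector Iigp1 was most abundant in fibroblasts, at 893 and 1500 CPM in the 2 mice with enough of these cells. Macrophages came next at 228 ± 62.9 CPM (SD, n = 5). Plasmacytoid dendritic cells averaged 199 CPM but ranged from 39.0 to 482 over 5 mice, and melanoma cells averaged 186 CPM with a range of 36.4 to 367 over 3. Regulatory T cells were at 157 ± 27.8 CPM (n = 4), CD4 T cells at 140 ± 87.4 (n = 4), cDC1 (type 1 conventional dendritic cells) at 117 ± 36.4 (n = 5), cDC2 (type 2) at 107 ± 45.6 (n = 4) and monocytes at 104 ± 28.8 (n = 5). Neutrophils averaged 99.5 CPM in 2 mice and mature dendritic cells 63.5 CPM in 5. From macrophages down, ranges overlapped between neighbours in this order. CD8 T cells had the lowest mean of the 13 classes with enough mice, at 12.6 to 58.6 CPM, and NK cells the next lowest at 20.8 to 100.0 CPM.

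**Figure D1:**
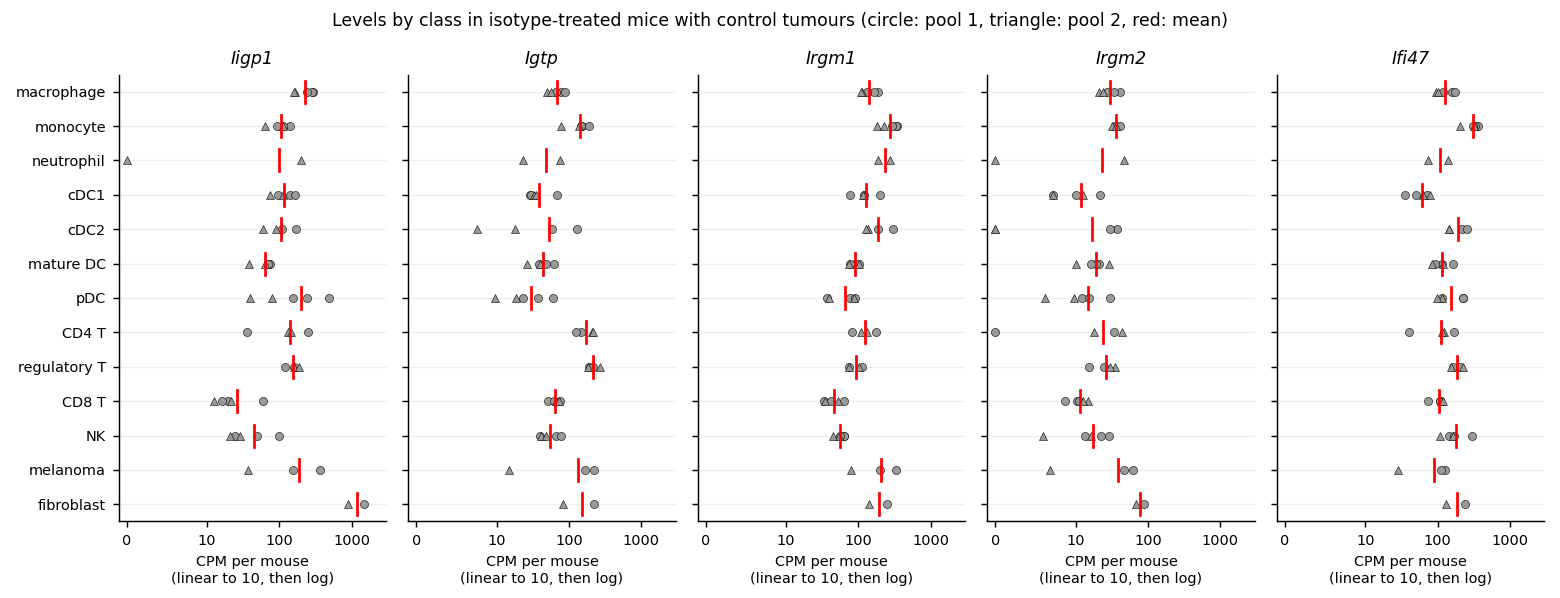
Level of 5 members (CPM, horizontal axis, linear up to 10 and logarithmic above) in 13 marker-gated classes of control tumours under isotype, with a point for each mouse and a line at the mean. Iigp1 reaches 893 and 1500 CPM in fibroblasts and 157 to 289 in macrophages, whereas Igtp has its highest mean in regulatory T cells at 215 CPM.

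The other members had other orders. Ifi47, an effector whose target is less well known, was highest in monocytes (205 to 366 CPM over 5 mice), followed by cDC2, regulatory T cells and fibroblasts with means of 189, 188 and 187 CPM and overlapping ranges. Irgm1, the regulator that also bears on autophagy and on the survival of blood cells, was likewise highest in monocytes at 274 ± 68.0 CPM (SD, n = 5), and its neighbours, neutrophils at 229 and melanoma cells at 202 CPM, overlapped that range. Igtp, the regulator of the endoplasmic reticulum membrane, was highest in regulatory T cells at 184 to 270 CPM in 4 mice. CD4 T cells (124 to 216 CPM) and monocytes (76.9 to 188 CPM) overlapped this range, and macrophages (50.4 to 87.6 CPM) did not. Irgm2 was highest in fibroblasts at 68.4 and 88.7 CPM, above the 31.7 to 41.4 CPM of monocytes, and lowest on average in CD8 T cells at 8.66 to 14.7 CPM.

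Fibroblasts were few, 264 cells in 6 mice across 3 groups, and carried the highest Iigp1 of any class of the same mouse in 6 of 6 mice, at 816 to 1980 CPM. Irgm2 was also highest in fibroblasts in 6 of 6 mice, whereas this held for Igtp in 4, for Irgm1 in 1 and for Ifi47 in 1. Fibroblasts held 30.9 to 63.8 CPM of the macrophage markers, against 6930 to 9920 CPM in macrophages themselves. In control tumours the levels of Iigp1 in fibroblasts were 1500 and 893 CPM under isotype and 1980 and 1820 CPM under anti-CD40, without overlap. The difference of 0.71 on the log2 scale did not pass edgeR's quasi-likelihood test (adjusted p = 0.365), nor did that of any other member in fibroblasts, where 0.108% of the 5563 genes tested passed. Of the 5 members tested there, 4 had an unadjusted p under 0.05 by edgeR, and DESeq2 called 0 of the 4 it adjusted. Irgm2 in fibroblasts was 88.7 and 68.4 CPM under isotype and 169 and 202 CPM under anti-CD40 (log2 difference 1.26, adjusted p = 0.191).

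Monocytes and macrophages of the same mouse differed in which members they carried more of. Under isotype, Iigp1 was lower in monocytes than in macrophages in 5 of 5 mice with control tumours, with a monocyte-to-macrophage ratio of 0.379 to 0.664, and in 5 of 5 with B2m-null tumours (0.36 to 0.957). Igtp was higher in monocytes in the same 5 of 5 control-tumour mice (ratio 1.52 to 2.83) and 5 of 5 B2m-null-tumour mice (2.24 to 4.88), and so were Ifi47 and Irgm1. Irgm2 was higher in monocytes in 4 of 5 and 3 of 5 of these mice (exact two-sided sign-flip permutation p = 0.188 and 1.0). For 5 mice the exact two-sided sign-flip permutation test gives 0.0625 at the least, and it gave 0.0625 for Iigp1, Igtp, Ifi47 and Irgm1 in both groups. Under anti-CD40 the order of Iigp1 was the other way round. It was higher in monocytes in 2 of 2 control-tumour mice (ratio 1.12 to 1.18) and in 3 of 4 B2m-null-tumour mice (0.9 to 1.73), while Igtp and Ifi47 were again higher in monocytes in all of these mice. Irgm1 was higher in monocytes in 2 of 2 and 3 of 4 of them, and Irgm2 lower in 2 of 2 and 3 of 4.

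In macrophages of B2m-null tumours, anti-CD40 was accompanied by higher levels of 5 of the 6 members tested, both regulators and effectors. Differences are on the log2 scale from edgeR's quasi-likelihood test on counts summed per mouse, with Benjamini-Hochberg adjustment over all genes tested in the class, and a gene was called at an adjusted p under 0.05. Here 36.1% of the 12175 genes were called in either direction and 17.9% were called higher. The regulator Igtp was at 27.2, 27.5 and 26.0 CPM in the isotype mice of pool 1 and 41.9 and 16.4 CPM in those of pool 2. Under anti-CD40 it was at 91.6 and 113 CPM in pool 1 and 58.5 and 62.7 CPM in pool 2. All anti-CD40 mice lay above all isotype mice, and Igtp rose by 1.74 (SE 0.24, adjusted p = 6.86e-05).

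Iigp1 in these macrophages stood at 78.6, 79.2 and 81.3 CPM in pool 1 and 158 and 28.9 CPM in pool 2 of the isotype mice. The anti-CD40 mice had 207 and 267 CPM in pool 1 and 178 and 228 CPM in pool 2, again above every isotype mouse. The rise was 1.57 (SE 0.32, adjusted p = 0.00133). Ifi47 ranged from 37.3 to 94.4 CPM under isotype and from 112 to 177 CPM under anti-CD40, without overlap, and rose by 1.20 (SE 0.23, adjusted p = 0.00072). Irgm1 ranged from 42.9 to 110 CPM and from 119 to 171 CPM, also without overlap, and rose by 1.02 (SE 0.22, adjusted p = 0.00203). Irgm2 went from 12.4 to 33.2 CPM under isotype and from 25.9 to 47.0 CPM under anti-CD40. Its ranges overlapped, its rise was 0.91 (SE 0.26, adjusted p = 0.0115), and it was not called without pool 1 of the B2m-null anti-CD40 mice (0.57, adjusted p = 0.152) or of the B2m-null isotype mice (0.91, adjusted p = 0.069).

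Tgtp2, the sixth member tested in these cells, was not called. It was at 0.892 to 2.84 CPM under isotype and 1.21 to 2.75 CPM under anti-CD40 (log2 difference 0.17, SE 0.37, adjusted p = 0.754), on 79 and 67 UMIs. Its copy Tgtp1, too low to be tested, had 9 UMIs under isotype (0 to 0.809 CPM by mouse) and 20 under anti-CD40 (0.0872 to 1.11 CPM), 10 of them from 1 mouse, and the ranges overlapped. How reads were split between the copies was not tested. T cell receptor transcripts (Trac and Trbc2, both detected) summed to 2.02 to 7.28 CPM in these macrophages under isotype and 5.93 to 9.88 CPM under anti-CD40, and their part in the result was not tested.

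**Figure D2:**
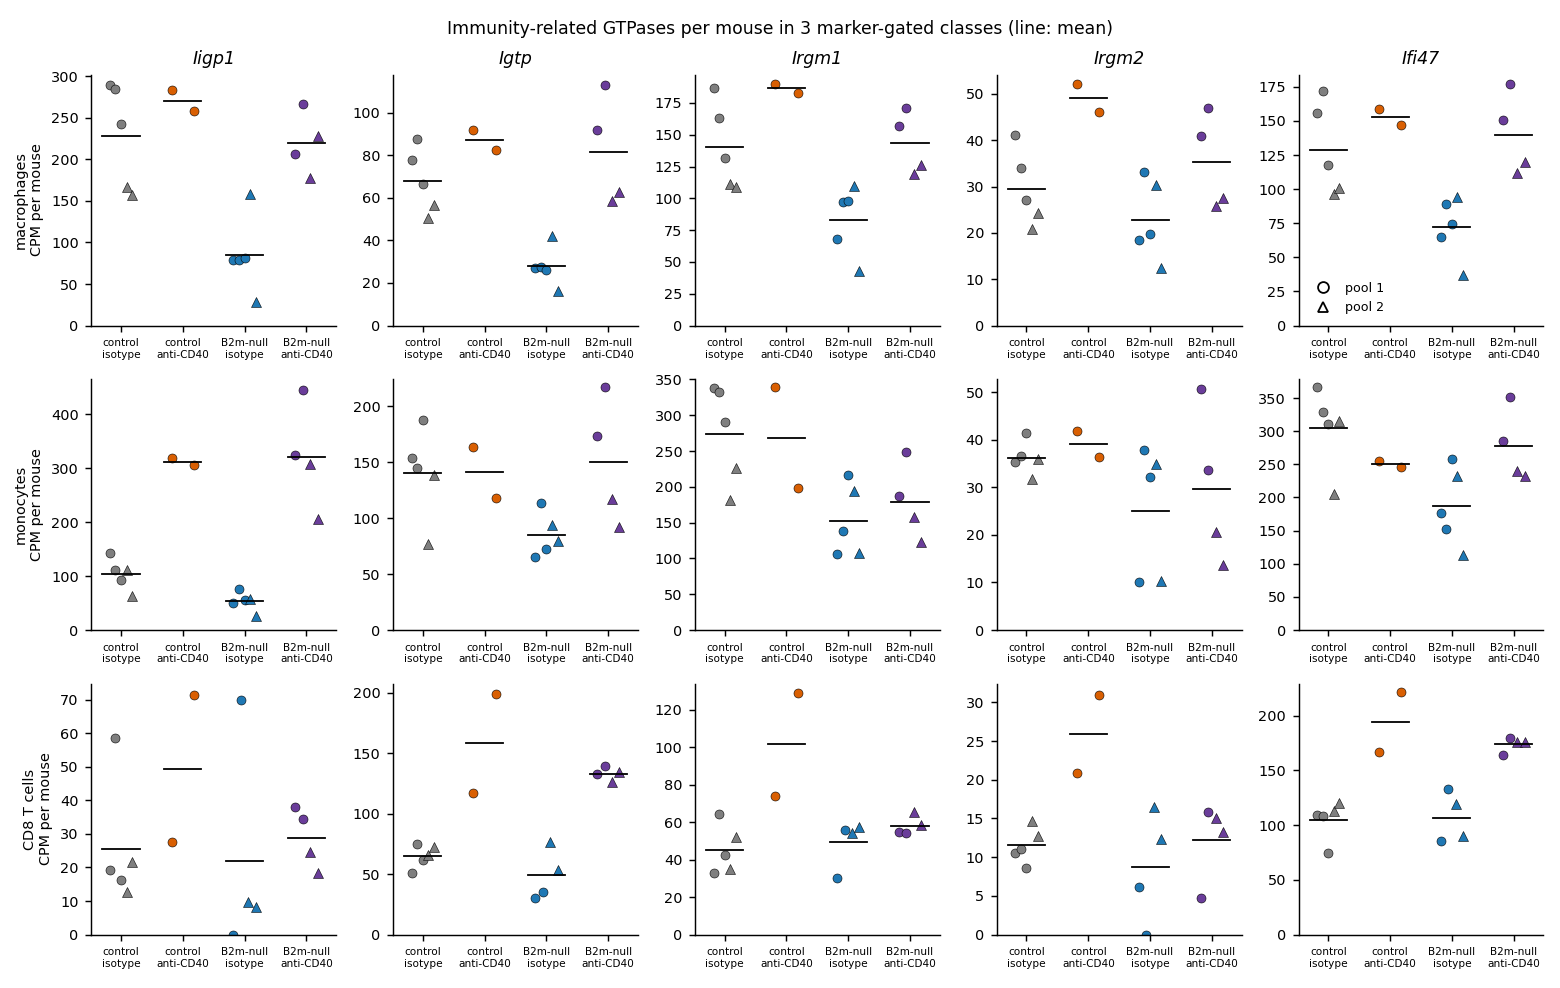
CPM of 5 members (columns) in macrophages, monocytes and CD8 T cells (rows) of the 4 groups, with circles for mice of pool 1, triangles for pool 2 and a line at the mean of the mice. In macrophages Igtp lies at 16.4 to 41.9 CPM in the B2m-null isotype mice and at 58.5 to 113 CPM in the B2m-null anti-CD40 mice.

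In macrophages of control tumours 1 of 6 members was called under anti-CD40, against 18.5% of the 12175 genes in either direction and 10.1% called higher. This was Irgm2, at 41.2, 34.0 and 27.2 CPM in pool 1 and 20.9 and 24.2 CPM in pool 2 under isotype and at 52.2 and 46.1 CPM under anti-CD40. The groups did not overlap, and Irgm2 rose by 0.93 (SE 0.29, adjusted p = 0.0318). The call was lost in 9 of 32 alternatives, among them leaving out either anti-CD40 mouse (adjusted p = 0.15 and 0.167) or pool 2 of the isotype mice (0.69, adjusted p = 0.155), the lane as the unit (0.95, adjusted p = 0.065) and a stricter gate (0.79, adjusted p = 0.059). Iigp1 was at 289, 285, 242, 167 and 157 CPM under isotype and 283 and 258 CPM under anti-CD40, so that the treated mice fell inside the isotype range (0.42, adjusted p = 0.477). The differences of Irgm1 (0.59, adjusted p = 0.126), Igtp (0.55, adjusted p = 0.175) and Ifi47 (0.43, adjusted p = 0.279) were positive and uncalled.

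The anti-CD40 difference in B2m-null tumours was set against that in control tumours by the interaction term of the same fit. In macrophages 1 of 6 members was called, against 14.6% of the genes. Igtp differed by 1.19 (SE 0.38, adjusted p = 0.0423), while Iigp1, Ifi47, Irgm1, Irgm2 and Tgtp2 were uncalled. The Igtp call was lost in 15 of 32 alternatives, among them leaving out pool 1 of the control isotype mice (0.86, adjusted p = 0.209), of the B2m-null anti-CD40 mice (0.81, adjusted p = 0.161) or of the B2m-null isotype mice (1.14, adjusted p = 0.146), and taking the lane as the unit (1.32, adjusted p = 0.105).

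In monocytes of control tumours Iigp1 was called and no member on chromosome 11 was, although the difference between the genes was not tested. It was at 142, 111, 91.9, 111 and 63.9 CPM under isotype and at 318 and 305 CPM under anti-CD40, without overlap. It rose by 1.57 (SE 0.26, adjusted p = 0.000368), a fold of 2.98, and was the 1 of 5 members called, against 3.83% of the 8267 genes tested in monocytes (2.30% higher). Igtp, Irgm1, Irgm2 and Ifi47 differed by -0.02, -0.06, 0.09 and -0.30 in the same comparison, with adjusted p from 0.584 to 0.985. The Iigp1 call was kept in 31 of 32 alternatives and was lost with a stricter gate (1.36, adjusted p = 0.068).

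In monocytes of B2m-null tumours Iigp1 was at 50.3, 75.8 and 56.4 CPM in pool 1 and 56.8 and 26.0 CPM in pool 2 under isotype. Under anti-CD40 it was at 324 and 444 CPM in pool 1 and 308 and 205 CPM in pool 2, above every isotype mouse. The rise was 2.86 (SE 0.25, adjusted p = 5.74e-08), a fold of 7.27, and was called in all 33 alternatives run. Of the 5 members tested, 3 were called, against 19.3% of the genes in either direction and 10.5% called higher. Igtp rose by 0.97 (SE 0.25, adjusted p = 0.00787) from 65.4 to 114 CPM to 92.5 to 217 CPM, and Ifi47 by 0.74 (SE 0.19, adjusted p = 0.00985) from 113 to 258 CPM to 232 to 351 CPM, both with overlap. Both calls were lost without pool 1 of the B2m-null anti-CD40 mice, to 0.49 (adjusted p = 0.208) for Igtp and 0.54 (adjusted p = 0.105) for Ifi47, and with the lane as the unit. Irgm1 (0.39, adjusted p = 0.274) and Irgm2 (0.23, adjusted p = 0.669) were uncalled.

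By the interaction term 2 of 5 members were called in monocytes, against 6.31% of the genes. Iigp1 differed by 1.29 (SE 0.37, adjusted p = 0.0355) and Ifi47 by 1.03 (SE 0.31, adjusted p = 0.0467). These calls were lost in 16 and 20 of 32 alternatives, among them leaving out control anti-CD40 mouse 1 (adjusted p = 0.104 and 0.14) or mouse 2 (0.168 and 0.222), control isotype pool 1 (0.163 and 0.208), B2m-null anti-CD40 pool 1 (0.0883 and 0.12), B2m-null isotype pool 1 (0.0789 and 0.0972), or the first technical lane (0.0636 and 0.1), and for Iigp1 also B2m-null isotype pool 2 (0.127). The differences themselves ran from 0.99 to 1.69 for Iigp1 and from 0.79 to 1.27 for Ifi47 over all 32 alternatives. Monocytes assigned to a mouse were few in B2m-null isotype pool 1, with 92, 35 and 80 cells. That lane held 908 gated monocytes, but 701 of them (77.2%) had no assigned mouse and were left out, against 11.5% in pool 2. Of cDC1 and mature dendritic cells in the pool 1 lane, 72.8% and 65.6% likewise had no assigned mouse. T cell receptor transcripts (Trac and Trbc2) summed to 7.66 to 21 CPM in monocytes of control tumours under isotype, 35.0 to 66.0 CPM in those under anti-CD40, 5.5 to 85.5 CPM in B2m-null tumours under isotype and 12.3 to 26.0 CPM in those under anti-CD40. Their part in the result was not tested. Macrophage markers, which the gate limits, were at 230 to 324, 234 to 246, 208 to 505 and 183 to 269 CPM in the same order, with 5 of 5 detected.

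The family genes Gm4951 and F830016B08Rik, which like Iigp1 lie on chromosome 18, also rose in monocytes. They were grouped by chromosome after the values had been seen, no test compared the chromosomes, and in B2m-null tumours Igtp and Ifi47 of chromosome 11 rose as well. How far reads are split between these related genes was not tested. Gm4951, a family gene of unsettled function, was at 7.99 to 16.2 CPM in control isotype mice and 52.4 and 50.1 CPM in control anti-CD40 mice. In B2m-null tumours it was at 0 to 12.6 CPM under isotype, on 8 UMIs in all (a count of 0 allows up to 24.2 and 5.2 CPM in the 2 mice that had none), and 56.7 to 92.1 CPM under anti-CD40, and neither pair of ranges overlapped. Gm4951 rose by 2.26 (SE 0.36, adjusted p = 0.00034) in control and by 4.86 (SE 0.36, adjusted p = 1.01e-08) in B2m-null tumours, and the rises differed by 2.60 (adjusted p = 0.00682). That difference was the 1 called among the 5 other family genes tested, where 6.31% of all genes were called, and 0 were called without control isotype pool 1, without B2m-null isotype pool 2 or with the lane as the unit. F830016B08Rik, its neighbour in the family, rose by 3.38 (adjusted p = 0.000596) and 5.35 (adjusted p = 2.8e-07). Its UMIs were few, at 9 and 15 in control and 2 and 120 in B2m-null tumours, and the ratio of summed CPM in B2m-null tumours was 45.9 with a 95% counting interval of 12.4 to 383. In control tumours 2 of the 5 other family genes tested were called higher, where 2.30% of all genes were, but 0 were without the first technical lane and 1 was without anti-CD40 mouse 2. In B2m-null tumours 2 of 5 were called higher with and without each lane, where 10.5% of all genes were. Gm4841, also on chromosome 18 and outside those 5, rose by 4.64 (adjusted p = 0.00182) in B2m-null tumours on 1 and 48 UMIs (ratio 36.7, interval 6.28 to 1480) and was uncalled in control tumours (2.01, adjusted p = 0.263). Intervals cover counting error only.

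**Figure D3:**
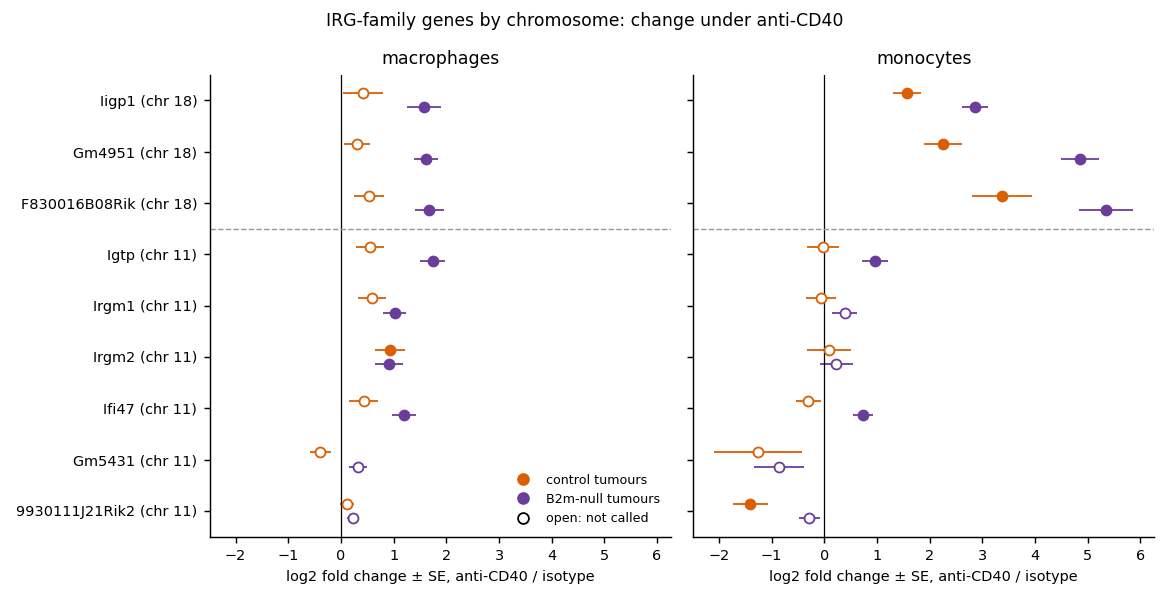
Log2 difference between anti-CD40 and isotype with its SE for 9 family genes, grouped by chromosome 18 and 11, in macrophages and monocytes of control (orange) and B2m-null (purple) tumours. In monocytes of control tumours Iigp1, Gm4951 and F830016B08Rik lie at 1.57, 2.26 and 3.38, whereas Igtp, Irgm1, Irgm2 and Ifi47 lie between -0.30 and 0.09.

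On chromosome 11, the family gene 9930111J21Rik2, which has a close copy, fell by 1.40 (SE 0.34, adjusted p = 0.0177) in monocytes of control tumours under anti-CD40 and was uncalled in B2m-null tumours (-0.28). The call was lost without anti-CD40 mouse 2, without the first technical lane and with the lane as the unit. In macrophages of B2m-null tumours under anti-CD40, 3 of the 8 other family genes tested were called, all higher, where 36.1% of all genes were called and 17.9% higher. There Gm4951 rose by 1.62 (adjusted p = 7.02e-05), F830016B08Rik by 1.68 (adjusted p = 0.000217) and Gm12185 of chromosome 11 by 1.73 (adjusted p = 0.011), beside 1.74 for Igtp and 1.57 for Iigp1. In macrophages of control tumours edgeR called 0 of these 8, with 1 at an unadjusted p under 0.05 and 0 called by DESeq2. Gm4841, which is not among the 8 and was added after its values were seen, rose there by 2.13 (adjusted p = 0.00739).

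CD8 T cells carried little Iigp1, yet all 5 members tested were higher in them under anti-CD40 in control tumours, against 36.7% of the 9699 genes in either direction and 17.4% called higher. Igtp was at 51.1, 75.1 and 61.7 CPM in pool 1 and 65.8 and 72.5 CPM in pool 2 under isotype and at 117 and 199 CPM under anti-CD40, without overlap. It rose by 1.34 (SE 0.20, adjusted p = 6.98e-05). Irgm1 was at 33.1 to 64.1 CPM against 73.9 and 129 CPM and rose by 1.27 (SE 0.21, adjusted p = 0.000159). Ifi47 was at 74.7 to 120 CPM against 167 and 222 CPM and rose by 0.91 (SE 0.16, adjusted p = 0.000265). These 3 calls held in all 32 alternatives run.

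The remaining calls in CD8 T cells of control tumours were lost when 1 anti-CD40 mouse was left out. Irgm2 was at 8.66 to 14.7 CPM against 20.9 and 30.9 CPM (rise 1.19, SE 0.29, adjusted p = 0.00319) and was uncalled without anti-CD40 mouse 2 (0.89, adjusted p = 0.153) or without isotype pool 1 (0.98, adjusted p = 0.0995). Iigp1 was at 19.3, 58.6, 16.2, 12.6 and 21.5 CPM under isotype and 27.6 and 71.3 CPM under anti-CD40, with overlap. Its rise of 1.20 (SE 0.42, adjusted p = 0.0303) became 0.34 (adjusted p = 0.732) without anti-CD40 mouse 2 and was uncalled without isotype pool 2 (0.97, adjusted p = 0.137). Macrophage markers, which the gate limits, summed to 43.3 to 71.4 CPM in CD8 T cells under isotype and 91.3 to 99.8 CPM under anti-CD40, with 5 of 5 detected, and their part in the result was not tested.

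In B2m-null tumours 2 of 5 members were called in CD8 T cells under anti-CD40, against 10.9% of the genes (5.82% higher). There Igtp was at 30.4, 35.0, 76.7 and 53.1 CPM in 4 isotype mice and 133, 139, 126 and 134 CPM in 4 anti-CD40 mice, and rose by 1.24 (SE 0.23, adjusted p = 0.00168). The isotype values rested on 5, 5, 144 and 13 UMIs in that order. The remaining isotype mouse had 5 CD8 T cells and was not used. Ifi47 was at 85.2 to 133 CPM and 164 to 180 CPM and rose by 0.81 (SE 0.17, adjusted p = 0.0051). Neither pair of groups overlapped, but with the lane as the unit the adjusted p became 0.0608 for Igtp and 0.0984 for Ifi47, and with a stricter gate 0.105 and 0.0711. Irgm1 was at 30.4 to 57.2 CPM against 54.1 to 65.5 CPM (0.31, adjusted p = 0.47), Irgm2 differed by 0.17 (adjusted p = 0.825) and Iigp1 by 1.10 (adjusted p = 0.268). Macrophage markers in these cells were at 67.1 to 106 CPM under isotype and 84.1 to 127 CPM under anti-CD40. The interaction term called 0 of 5 members in CD8 T cells with edgeR, where 10.4% of genes were called; 2 had an unadjusted p under 0.05, and DESeq2 called 0 of the 4 it adjusted.

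**Figure D4:**
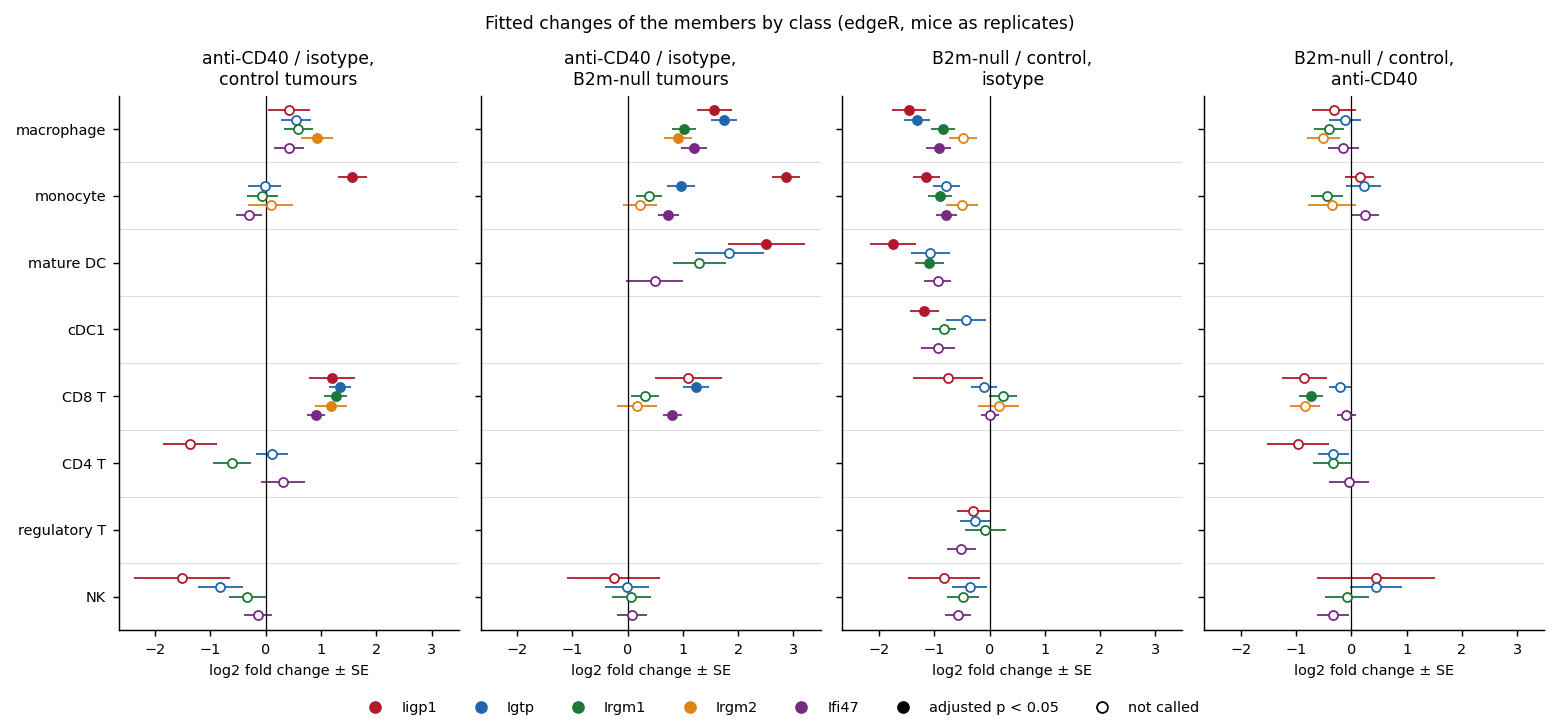
Log2 difference (horizontal axis) with its SE for Iigp1, Igtp, Irgm1, Irgm2 and Ifi47 in 8 classes and 4 comparisons, with filled points where the adjusted p was under 0.05. Tgtp2, called at -1.37 in macrophages of B2m-null against control tumours under isotype, is not drawn. The members called under anti-CD40 lie to the right of 0, up to Iigp1 at 2.86 in monocytes of B2m-null tumours, and those called for B2m-null against control tumours lie to the left, down to Iigp1 at -1.75 in mature dendritic cells. That last value rests on 1 to 19 UMIs in each B2m-null mouse.

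Without anti-CD40, macrophages of B2m-null tumours carried less of 5 of the 6 members than those of control tumours, against 9.09% of the genes called in either direction and 5.01% called lower. Igtp was at 50.4 to 87.6 CPM in control and 16.4 to 41.9 CPM in B2m-null tumours, without overlap, and fell by 1.31 (SE 0.23, adjusted p = 0.00426). Tgtp2, at 3.06 to 6.29 CPM and 0.892 to 2.84 CPM, fell by 1.37 (SE 0.32, adjusted p = 0.0162), and Ifi47, at 96.6 to 172 CPM and 37.3 to 94.4 CPM, fell by 0.92 (SE 0.22, adjusted p = 0.0167), also without overlap. Iigp1, at 157 to 289 CPM and 28.9 to 158 CPM, fell by 1.46 (SE 0.31, adjusted p = 0.0102), with 1 B2m-null mouse of pool 2 just inside the control range. Irgm1, at 109 to 187 CPM and 42.9 to 110 CPM, fell by 0.84 (SE 0.21, adjusted p = 0.0227), and Irgm2 was uncalled (-0.48, adjusted p = 0.239).

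The share of all genes that separated the control isotype pools in macrophages was not counted. Pool 1 of the control isotype mice lay above pool 2 for all 6 members tested in macrophages, with Iigp1 at 289, 285 and 242 CPM against 167 and 157 CPM. All 5 calls were lost without that pool, where Iigp1 differed by -0.97 (adjusted p = 0.295), Igtp by -0.98 (adjusted p = 0.163), Tgtp2 by -0.99 (adjusted p = 0.293), Ifi47 by -0.54 (adjusted p = 0.373) and Irgm1 by -0.48 (adjusted p = 0.423). They were also lost without pool 1 of the B2m-null isotype mice, where the differences ran from -0.90 to -1.35 and the adjusted p from 0.0989 to 0.184. With the lane as the unit, Iigp1 (-1.57, adjusted p = 0.00707), Irgm1 (-0.98, adjusted p = 0.0296), Igtp (-1.35, adjusted p = 0.0247) and Ifi47 (-1.0, adjusted p = 0.0398) were called, and Tgtp2 was not (adjusted p = 0.051).

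In monocytes under isotype, 3 of 5 members were called lower in B2m-null tumours, against 1.32% of the genes (1.02% lower). Iigp1 fell by 1.14 (SE 0.25, adjusted p = 0.0207), Irgm1 by 0.89 (SE 0.22, adjusted p = 0.0467) and Ifi47 by 0.78 (SE 0.19, adjusted p = 0.032), and Igtp differed by -0.78 (adjusted p = 0.133). The ranges of all 4 overlapped between the groups, as with Irgm1 at 182 to 338 CPM in control and 106 to 217 CPM in B2m-null tumours. The 3 calls were lost without control isotype pool 1 (adjusted p from 0.553 to 0.752), without either B2m-null isotype pool (0.0641 to 0.279) and with the lane as the unit (0.615 to 0.886), and that of Irgm1 also with the replicate block (-0.72, adjusted p = 0.0519). In CD8 T cells under isotype edgeR called 0 of 5 members, against 0.918% of the genes, with 0 at an unadjusted p under 0.05 and 0 called by DESeq2.

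Under isotype Iigp1 was also called lower in B2m-null tumours in cDC1 and mature dendritic cells, and not in cDC2 (-2.22, adjusted p = 0.296) or plasmacytoid dendritic cells (-1.28, adjusted p = 0.743). In cDC1, which cross-present tumour antigen, Iigp1 was at 139, 167, 96.1, 74.4 and 111 CPM in control and 17.7, 68.1 and 37.6 CPM in B2m-null tumours, without overlap. It fell by 1.18 (SE 0.26, adjusted p = 0.0162) and was the 1 of 4 members called, against 1.22% of the genes. In mature dendritic cells, those with Ccr7 that travel to lymph nodes, Iigp1 was at 73.0, 73.5, 68.9, 63.8 and 38.4 CPM in control and 4.63, 16.5, 122, 21.5 and 2.83 CPM in B2m-null tumours. The B2m-null values rested on few UMIs, at 1, 2, 6, 19 and 1 in that order. Iigp1 fell by 1.75 (SE 0.42, adjusted p = 0.0477) with 1 B2m-null mouse above the control range, and Irgm1 fell by 1.09 (SE 0.26, adjusted p = 0.0448), which made 2 of 4 members against 0.698% of the genes. DESeq2 adjusted 0 of these 4. The cDC1 call was lost in 7 of 33 alternatives. Among them were leaving out control isotype pool 1 (-0.89, adjusted p = 0.159) and the replicate block (-1.02, adjusted p = 0.0794). The others were the lane as the unit, a stricter gate, thinned cells, and leaving out mouse 2 or all of B2m-null isotype pool 2. In cDC1, leaving out all of that pool left 1 mouse with 2 Iigp1 UMIs in the group, so no value is given for it. The calls in mature dendritic cells were each lost in 15 alternatives, among them control isotype pool 1 (adjusted p = 0.937 and 0.832), pool 2 (0.0636 and 0.107) and B2m-null isotype pool 2 (0.24 and 0.0654), for Irgm1 also B2m-null isotype pool 1 (0.151), and the replicate block (0.0883 and 0.0563).

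Under anti-CD40 in B2m-null tumours, mature dendritic cells gave 1 call in 4 members, against 3.63% of the genes. Iigp1 was at 2.83 to 122 CPM under isotype and at 61.5 and 159 CPM under anti-CD40, on 5 and 11 UMIs from 2 mice of pool 1. The rise of 2.51 (SE 0.70, adjusted p = 0.0457) came with overlapping ranges and was lost in 13 of 29 alternatives, among them leaving out B2m-null isotype pool 2 (adjusted p = 0.122) or control isotype pool 1 (adjusted p = 0.0944), and the replicate block (2.14, adjusted p = 0.121). The call was also lost without either of the 2 anti-CD40 mice, which left 1 mouse in the group. DESeq2 called 0 of the 4 members it adjusted.

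Under anti-CD40, few members differed between B2m-null and control tumours. In macrophages edgeR called 0 of 6 members, where 8.09% of the genes were called; 1 had an unadjusted p under 0.05, and DESeq2 also called 0. Igtp, for example, was at 58.5 to 113 CPM in B2m-null and at 92.0 and 82.3 CPM in control tumours, and Iigp1 at 178 to 267 CPM and at 283 and 258 CPM. In monocytes edgeR called 0 of 5, against 3.29% of the genes, with 0 at an unadjusted p under 0.05 and 0 called by DESeq2 of the 4 it adjusted. In CD8 T cells 1 of 5 was called, against 7.30% of the genes. This was Irgm1, at 73.9 and 129 CPM in control and 54.1 to 65.5 CPM in B2m-null tumours, which was 0.73 lower (SE 0.21, adjusted p = 0.0417). Without control anti-CD40 mouse 2 the difference was -0.26 (adjusted p = 0.785), and it was uncalled in 17 of 32 alternatives. The difference of Irgm2 in CD8 T cells was -0.84 (adjusted p = 0.0653).

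In the other 9 classes with a test (B, CD4 T, regulatory T, NK, cDC2, plasmacytoid dendritic cells, neutrophils, fibroblasts and melanoma cells), edgeR called 0 of 78 member tests, while 22 had an unadjusted p under 0.05 and DESeq2 called 0 of the 44 it adjusted. Over these classes 1.53% of the tests of all genes were called. NK cells, which make interferon-gamma, gave differences under anti-CD40 of -0.25 to 0.08 for 4 members in B2m-null tumours, where 4.29% of the 4851 genes were called. In control tumours the 4 members of NK cells differed by -1.51 to -0.14, with adjusted p from 0.313 to 0.835 and 3.79% of the genes called. In CD4 T cells of control tumours Iigp1 differed by -1.37 under anti-CD40 (adjusted p = 0.0908), where 7.42% of the genes were called. In B cells of B2m-null tumours it differed by 3.51 (adjusted p = 0.121), where 2.38% were called. A missing call does not show that the level was the same.

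Melanoma cells that came through the selection differed widely in Iigp1 between lanes of one group. Over all melanoma-gated cells of a lane, the isotype lanes of control tumours had Iigp1 at 338 and 33.1 CPM (121 and 101 cells). It was at 212 and 195 CPM in the technical repeats of control tumours under anti-CD40 (124 and 182 cells). In B2m-null tumours it was at 8.31 and 66.6 CPM under isotype (247 and 84 cells) and at 84.4 and 299 CPM under anti-CD40 (54 and 16 cells). The regulator Igtp followed the same order of lanes within each group, at 180 and 18, 157 and 135, 6.8 and 33.3, and 95 and 203 CPM. Ifi47, at 133 and 26.4, 95.1 and 96.6, 7.81 and 16.5, and 75.6 and 241 CPM, again had its lowest level in B2m-null isotype lane 1. Both B2m-null anti-CD40 lanes lay above both B2m-null isotype lanes for Iigp1, Igtp, Irgm1, Irgm2 and Ifi47, on 16 cells in 1 of them. B2m, which the implanted B2m-null cells lack, was likewise higher there, at 329 and 400 CPM under anti-CD40 and 156 CPM in both isotype lanes, and the part of RNA from other cells in these levels was not tested. No test of groups was made over these lanes, and the share of all genes higher in both B2m-null anti-CD40 lanes was not counted. Among mice with at least 20 melanoma cells, the anti-CD40 comparison in control tumours could be fitted, and edgeR called 0 of 6 members in it, with 0 at an unadjusted p under 0.05 and 0 called by DESeq2 of the 3 it adjusted, where 1.82% of the genes were called.

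**Figure D5:**
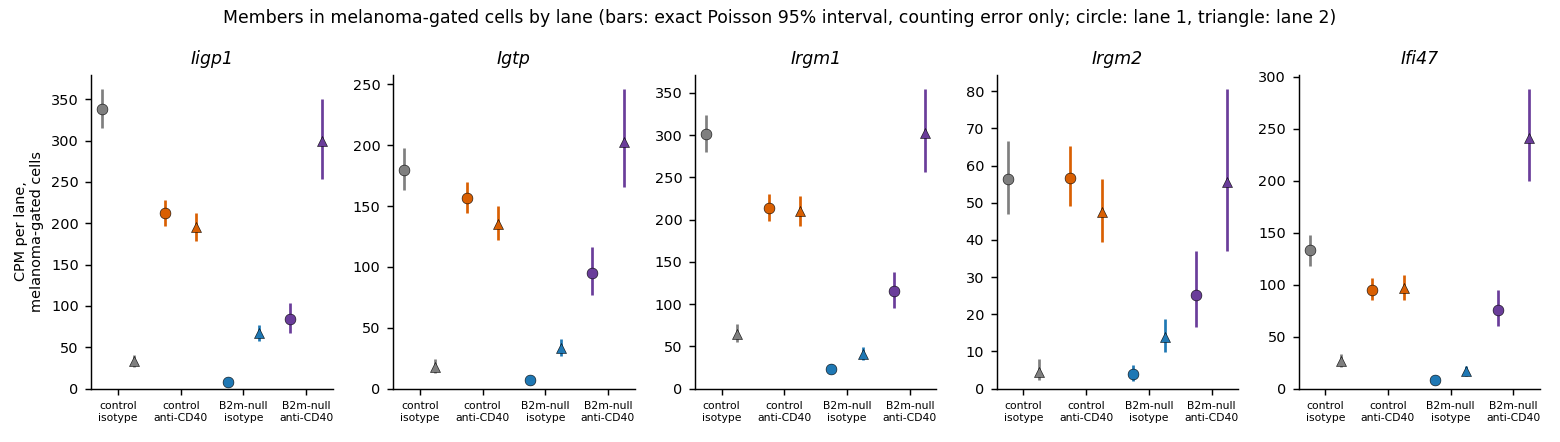
CPM of 5 members in the melanoma-gated cells of each of the 8 lanes, with exact Poisson 95% intervals that cover counting error only. In B2m-null isotype lanes Iigp1 is at 8.31 and 66.6 CPM, and in control isotype lanes at 338 and 33.1 CPM, while the technical repeats of control tumours under anti-CD40 are at 212 and 195 CPM.

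Other interferon-related genes were described by lists taken whole, beside the 36.1% of all macrophage genes called in either direction and the 17.9% called higher in this comparison. In macrophages of B2m-null tumours under anti-CD40 the members tested had a median log2 difference of 1.11, against -0.02 over all genes. The guanylate-binding proteins, a related family of interferon-induced GTPases that also act on vacuoles, had 8 of 9 genes called higher with a median of 1.43, led by Gbp2b at 3.55, Gbp4 at 1.95 and Gbp6 at 1.51. Other interferon-gamma targets had 9 of 10 called higher (median 1.22), led by Nos2, the inducible nitric oxide synthase, at 3.66 and the T cell chemokines Cxcl9 at 2.10 and Cxcl10 at 1.88. Interferon-gamma and its proximal signalling had 4 of 8 called higher and Jak1 lower (median 0.62), with Ifng at 1.89, the feedback inhibitor Socs1 at 1.75 and the transcription factor Irf1 at 1.28. T cell receptor transcripts were detected in these macrophages, and the part of RNA from T and NK cells in the Ifng level was not tested. Type I interferon-stimulated genes had 5 of 12 higher (median 0.53), led by Isg15 at 1.23. The conjugation and autophagy partners, which load these GTPases onto vacuoles, had 4 of 10 higher with small differences (median 0.22), the largest being Map1lc3a at 0.63. Leaving out 1 lane at a time, the guanylate-binding proteins called ranged from 6 to 8 and the targets from 8 to 9. The type I count was 3 without B2m-null anti-CD40 pool 1 or B2m-null isotype pool 2 and 10 with the lane as the unit, and the partner count was 1 without B2m-null anti-CD40 pool 2 and 2 with the lane as the unit.

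Most of these lists also held called genes in macrophages of B2m-null against control tumours under isotype, all of them lower, where 5.01% of all genes were called lower. All 9 guanylate-binding proteins were called (median -1.31, against 0.01 over all genes), as were 8 of 10 other interferon-gamma targets (median -0.99), 6 of 12 type I genes (median -0.70), 5 of 8 other family genes (median -0.52) and 3 of 8 signalling genes. The autophagy partners had 0 of 10 called by edgeR there (median -0.01), with 1 at an unadjusted p under 0.05 and 1 called by DESeq2. As with the members, the calls depended on which pools were in the fit. Without control isotype pool 1 every list had 0 called, and without B2m-null isotype pool 1 1 target and 2 type I genes were called. The other family genes called were 3 without pool 2 of either isotype group. With the lane as the unit the calls were 8 of 9 guanylate-binding proteins, 8 of 10 targets, 9 of 12 type I genes, 2 of 8 signalling genes and 2 of 8 other family genes, all lower. In macrophages of control tumours under anti-CD40, where 18.5% of all genes were called and 10.1% higher, Cd274 and Nos2 were called higher among the 10 targets, 0 of 9 guanylate-binding proteins were called by edgeR (median 0.55; 1 at an unadjusted p under 0.05, 0 by DESeq2) and 3 of 12 type I genes were called lower (median -0.69). Signalling genes had 1 of 8 called higher (Ifng at 1.76) and autophagy partners 3 of 10, Map1lc3a, Gabarapl1 and Atg5 at 0.88, 0.68 and 0.38. The part of RNA from T and NK cells in this Ifng level was not tested. Without anti-CD40 mouse 2, 0 genes of all these lists were called. With the lane as the unit 0 signalling genes and 1 partner were called higher. The type I count was 1 without anti-CD40 mouse 1 or control isotype pool 1, 5 without B2m-null isotype pool 1 or by DESeq2, and 6 with the lane as the unit.

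In monocytes of control tumours type I genes and Iigp1 went opposite ways. There 9 of 12 type I genes fell under anti-CD40 (median -1.82), led by Rsad2 at -2.92, Ifit2 at -2.88 and Ifit3 at -2.78, beside the rise of Iigp1 by 1.57. Over all genes 3.83% were called there in either direction. The type I count was 4 without anti-CD40 mouse 2. Gbp2b rose by 2.31 as the 1 of 9 guanylate-binding proteins called, and 0 were called without either anti-CD40 mouse, the first technical lane or control isotype pool 2 or with the lane as the unit. Of 10 targets Cxcl10 alone was called, at -1.06 (adjusted p = 0.0448), and 0 were called without either anti-CD40 mouse, the second technical lane, or pool 1 of either isotype group. There edgeR called 0 of 7 signalling genes and 0 of 10 autophagy partners, with 1 and 2 at an unadjusted p under 0.05, and DESeq2 called 0 of the 7 signalling genes and 7 partners it adjusted. In monocytes of B2m-null tumours 7 of 10 interferon-gamma targets (median 0.86), 4 of 9 guanylate-binding proteins (median 0.65) and 3 of 12 type I genes were called higher, while Cmpk2 of the type I genes was called lower, where 19.3% of all genes were called and 10.5% higher. Of 7 signalling genes 1 was called higher there and 2 lower (median -0.07), Ifngr1 at -0.86 and Jak1 at -0.48, and 1 of 10 autophagy partners was called higher. With the lane as the unit 0 of these signalling genes and partners were called, and without B2m-null anti-CD40 pool 1 no signalling gene was called higher and 1 was called lower. Without B2m-null anti-CD40 pool 1, and with the lane as the unit, 2 guanylate-binding proteins were called, and with the lane as the unit 4 targets were. By the interaction term 8 of the 12 type I genes differed in monocytes, with a median of 2.2, where 6.31% of all genes were called. The count was 4 without control anti-CD40 mouse 2 and 1 with the lane as the unit. In CD8 T cells of control tumours 6 of 8 guanylate-binding proteins rose (median 0.65, members 1.20), led by Gbp2 at 1.14, and 5 of 8 signalling genes rose, Irf1 by 1.39 among them, while the receptor chain Ifngr2 fell by 1.54. The interferon-gamma targets went both ways, with 4 of 10 called higher and 3 lower (median -0.24). In this comparison 36.7% of all genes were called and 17.4% higher. Nos2 was 2.82 higher on 5 and 66 UMIs, in the cells whose macrophage markers were also higher, and Ciita and Irf8 fell by 1.85 and 1.37. Of the targets 2 were called higher and 1 lower without anti-CD40 mouse 2, and 1 and 0 with the lane as the unit. The Ifngr2 call was also lost in both of these settings. Without anti-CD40 mouse 2 the counts were 1 guanylate-binding protein and 1 signalling gene higher, without control isotype pool 1 they were 3 and 3, and with the lane as the unit 2 and 2. EdgeR called 0 of 10 type I genes there (median -0.24), with 3 at an unadjusted p under 0.05 and 0 called by DESeq2. The comparisons with control tumours under isotype share those mice, so the lists were not compared between them.

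Over 42 combinations of class and group, each gene's log2(CPM + 1) was set against the mean of the standardised members as a description. The points share mice, libraries and depth, and no p is given. The genes most like the members among 12369 compared were Gm4841 (r = 0.801) and F830016B08Rik (r = 0.791), both family genes of chromosome 18, followed by Fam114a1, Casp12, Gbp2, Tnfrsf12a, Sod2, Pcdh7, Bsg and Selenom at 0.778 to 0.759. The median r over all genes was 0.083. The mean was taken over all 7 members, Tgtp1 included, although Tgtp1 was too low to be compared itself. Among the 6 members abundant enough to be compared, each of which is part of the mean, r ran from 0.659 to 0.83. Between single members r was highest for Iigp1 with Irgm1 at 0.69 and lowest for Ifi47 with Tgtp2 at 0.22.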

How the data were processed

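The deposited matrices hold UMI counts per gene and cell barcode, with hashtag counts as further features, made by the authors with Cell Ranger 3.0.0 and bcl2fastq 2.20.0.422 on mm10, per the submitters' processing notes. The matrices were not normalized, per the labels and the whole-number values. Hashtags were assigned by a mixture model (posterior at least 0.9, at least 20 hashtag counts), and a second hashtag over 2.5 SD above background marked a doublet. Pools have 3 hashtags per the labels, but only 2 of the 8 feature tables name 3, and the other 6 name 2. A minimum of 200 genes and a maximum of 10% mitochondrial UMIs were required, and cells were gated by marker UMIs, with cut-offs set after marker counts had been seen. Cells with markers of several lineages were left ungated, which also removes some doublets.

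Counts were summed per mouse and class (at least 20 cells) and tested with edgeR 4.0.16 (TMM, filterByExpr, 1 dispersion over the 4 groups, at least 2 mice per group). Benjamini-Hochberg adjustment ran over all genes of the class. DESeq2 1.42.0 was an alternative. Where leaving out a mouse or pool left 1 mouse in a group, that mouse was assumed to vary like the other groups. Mice of a pool share a library, so the lane was also taken as the unit. The members and lists were chosen with earlier results of these data known. All 7 members are named, and from each list at most the 3 called genes with the largest differences, with others named where counts needed it. A listed signalling gene is counted but not reported here by itself. Lists were other family genes, guanylate-binding proteins, interferon-gamma signalling, interferon-gamma targets, type I genes and autophagy partners, and Gm12250, Gbp11, Mx1 and Mx2 matched no symbol. Replicate numbers name separate pools and correlated from -0.05 to 0.336 between groups, with 2 numbers per group, so they were not taken as pairs.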

Additional observations from a re-analysis of the deposited data

Results flagged for a closer look

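Among 56 groups of 4 or 5 mice checked for 1 mouse far from the others, 4 had such a mouse, where chance gives about 1 in 20, and all were in CD8 T cells of pool 1. Iigp1 was at 69.9 CPM in mouse 3 of B2m-null isotype pool 1, on 10 UMIs, against 0 to 9.59 CPM in the other mice, where a count of 0 allows up to 18.3 CPM. Iigp1 was at 58.6 CPM in mouse 2 of control isotype pool 1, against 12.6 to 21.5 CPM in the others. Irgm1 was at 30.4 CPM in mouse 1 of B2m-null isotype pool 1, below the 54.4 to 57.2 CPM of the others. Ifi47 was at 74.7 CPM in mouse 3 of control isotype pool 1, below the 108 to 120 CPM of the others.

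The anti-CD40 difference itself differed between B2m-null and control tumours for 3 of 24 member tests by edgeR's interaction term. These were Iigp1 in monocytes (1.29, SE 0.37, adjusted p = 0.0355), Ifi47 in monocytes (1.03, SE 0.31, adjusted p = 0.0467) and Igtp in macrophages (1.19, SE 0.38, adjusted p = 0.0423). All 3 were larger in B2m-null tumours, and none was called with the lane as the unit. In the order given, the calls were lost in 16, 20 and 15 of 32 alternatives. Over all genes the interaction term called 6.31% in monocytes, 14.6% in macrophages and 10.4% in CD8 T cells. The members called were 2 of 5, 1 of 6 and 0 of 5 in the same order, so in macrophages they were near the share of all genes. The other 8 tests, in NK cells and neutrophils, gave 0 calls, and the share of all genes is not given for them.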

How the results depend on the processing

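For the 33 called member tests, 1068 alternative values were computed: 855 were called, 213 were not and 0 reversed. The 8 tests called in every alternative were Ifi47, Igtp, Iigp1 and Irgm1 in macrophages and Iigp1 in monocytes under anti-CD40 in B2m-null tumours, and Ifi47, Igtp and Irgm1 in CD8 T cells under anti-CD40 in control tumours. The member tests numbered 39 and 30 for anti-CD40 in control and B2m-null tumours. They numbered 42 and 35 for genotype under isotype and under anti-CD40, and 24 for the difference of anti-CD40 effects. Counts of called tests depended on single pools. The share of all genes called was not set beside each count, so whether members shifted more than other genes was not tested. Leaving out 1 mouse or lane, the 7 calls for anti-CD40 in control tumours ranged from 4 (without control anti-CD40 mouse 2) to 11 (without control isotype pool 1). The 11 for anti-CD40 in B2m-null tumours ranged from 7 (without B2m-null anti-CD40 pool 1) to 15. The 11 for B2m-null against control tumours under isotype ranged from 0 (without control isotype pool 1) to 15, with 2 and 6 without pool 1 and pool 2 of the B2m-null isotype mice. The 1 for genotype under anti-CD40 ranged from 0 to 2, and the 3 for the difference of anti-CD40 effects from 0 to 5.

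With cells thinned to 1000 UMIs the counts were 7 for anti-CD40 in B2m-null tumours, 4 for genotype under isotype and 0 for genotype under anti-CD40. With the lane as the unit they were 7, 6 and 0, and 0 for the difference of effects. With the lane and all gated cells, a setting chosen after seeing the data, they were 5 for genotype under isotype, 0 for genotype under anti-CD40 and 0 for the difference. Without the filter on low counts they were 19, 5 and 5 in that order. A stricter gate gave 6 and 0 for genotype under isotype and under anti-CD40. DESeq2 and a minimum of 50 cells gave 0 for genotype under anti-CD40. The replicate block gave 7 for genotype under isotype and 10 for anti-CD40 in B2m-null tumours. The cause of these shifts was not tested, except that thinning and stricter gates left fewer tests. Of 112 class levels, 81 stayed within 1 SD after thinning and 90 with the stricter gate.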
